A study of Arabidopsis thaliana with 18 samples.

Results

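The comparison set Arabidopsis seedlings of the genotype elf7-3 against Col, both grown at 27 °C. ELF7 is the Arabidopsis counterpart of the Paf1 protein, and elf7-3 is a mutant allele of that gene. RNA was sequenced from 3 libraries of 7-day-old elf7-3 seedlings and 3 libraries of 7-day-old Col seedlings, all kept under short days. The members were the 6 columns of the deposited table of TPM values, levels scaled for transcript length and library size, and the features were all genes that reached 1 TPM in 3 or more of these 6 libraries. That left 19294 of 27655 genes. The same series holds 3 libraries each of elf7-3 and Col seedlings grown at 21 °C, which served to ask whether a difference was larger or smaller in the cooler plants, and 3 libraries at each temperature of h3.3kd, a knock-down of the histone variant H3.3. How many seedlings were pooled for a library, and whether replicates came from separate sowings, is not given in the labels; p-values therefore cover only the scatter of these libraries, part of which may be technical.

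The Paf1 complex travels with RNA polymerase II along transcribed genes, and it is needed for monoubiquitination of histone H2B and for methylation of histone H3 on gene bodies. In Arabidopsis its subunits are best known for keeping the floral repressor FLC and its relatives active, so that their mutants flower early. Growth in moderate warmth lengthens the stem below the cotyledons and the leaf stalks. This response runs through bHLH transcription factors of the PIF family, which raise the output of auxin synthesis genes such as YUC8, and through auxin-responsive genes that loosen cell walls. H2A.Z and H3.3, variants of the core histones, are part of the chromatin of such genes.

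The 6 libraries separated by genotype. Replicates correlated across genes at 0.990 to 0.991 within a genotype and at 0.970 to 0.975 between genotypes, and the first principal component, with 63.7% of the variance, separated elf7-3 from Col. The smallest steps in the values put the depth at roughly 9.98e+06 to 1.07e+07 reads a library, an approximate figure. Between 19119 and 19225 genes reached 1 TPM in each. Chloroplast and mitochondrial genes took 0.186 ± 0.0314% of TPM in elf7-3 and 0.240 ± 0.0186% in Col (SD, n = 3 each), with p = 0.2 in a two-sided exact permutation test, where 0.1 is the smallest this design allows. ELF7 itself, the mutated gene, was measured at 12.5, 13.4 and 13.2 TPM in elf7-3 and 40.2, 41.1 and 40.7 TPM in Col, a log2 fold change of -1.57 ± 0.07 (SE; limma adjusted p = 1.74e-10), which goes with the labels. All fold changes below are on the log2(TPM + 1) scale, elf7-3 over Col, which understates the change of genes with low levels. A gene was called when its Benjamini-Hochberg adjusted p from limma across all genes tested was under 0.05, ± after a fold change is a standard error, and ± after a mean TPM is the SD over 3 libraries. Of the 150 genes singled out by the naming rule, 36 overlap another annotated gene, among them ELF7, FLC, FAR1 and AT1G33055; the strand setting of the counting is not given in the sources used here, so reads of such neighbours cannot be told apart. In whole seedlings, fewer cells of a type and less RNA per cell cannot be told apart.

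At 27 °C, 6980 genes differed between elf7-3 and Col, 36.2% of those tested. Of these, 3281 (17% of all tested) were higher and 3699 (19.2%) lower in elf7-3. These are the shares to set beside the counts at 27 °C of each gene list below, and several short lists lie near them. Counts at 21 °C are to be set beside the 13.5% higher and 15.8% lower of all genes tested there. Most differences were small. A 2-fold change was reached by 152 of the called genes that were higher (0.788% of all tested) and by 244 that were lower (1.26%). Over all genes the median difference was -0.010. The 3 elf7-3 values lay wholly above the 3 Col values for 4208 genes (21.8%) and wholly below for 4799 (24.9%).

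**Figure D1:**
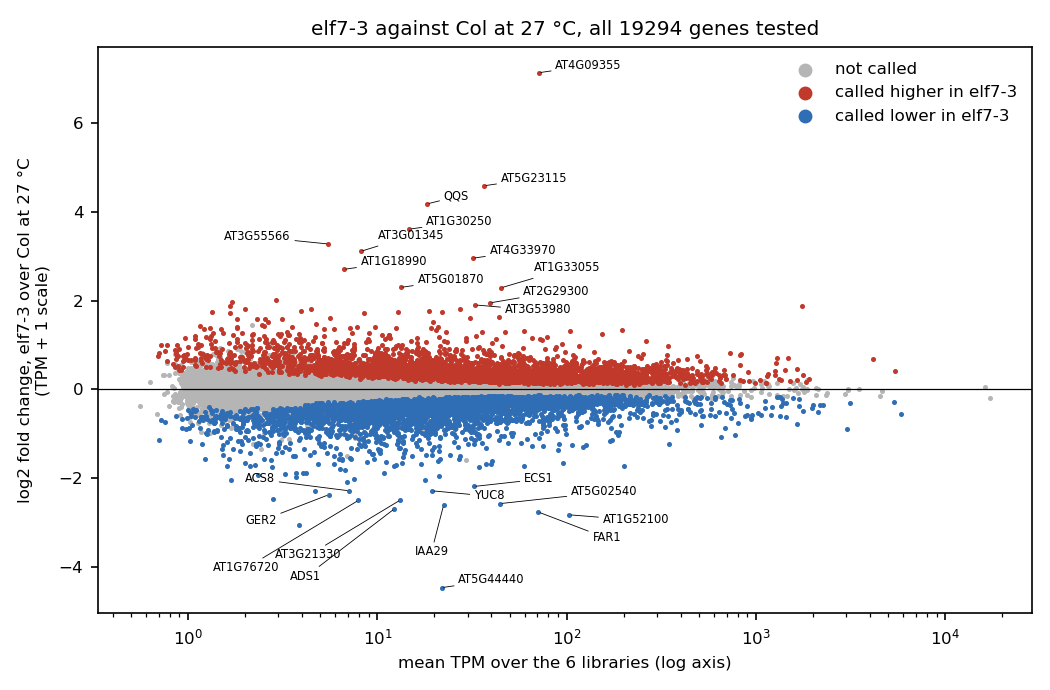
Mean TPM over the 6 libraries (log axis) against the log2 fold change, elf7-3 over Col at 27 °C, for each of 19294 genes; red and blue points passed the test. The 12 largest rises and 12 largest falls that met the naming rule are labelled, with AT5G44440 at -4.46 the lowest point and QQS at 4.18 among the highest.

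The strongest rises were in genes of little-known function. QQS, an Arabidopsis orphan gene that affects leaf starch and whose silencing by DNA methylation varies between plants, was read at 38.2, 34.2 and 34 TPM in elf7-3 and 1.05, 1.77 and 0.425 TPM in Col. All 3 elf7-3 libraries were far above all 3 Col libraries, and the log2 fold change was 4.18 ± 0.22 (adjusted p = 1.24e-09), beside 4.2 at 21 °C. AT4G33970, annotated as a leucine-rich repeat protein, was at 60.5, 50.4 and 61.0 TPM in elf7-3 and 5.71, 7.08 and 6.73 TPM in Col (2.96 ± 0.13). AT1G18990, a putative myosin-binding protein, was at 11.8, 12.4 and 12.6 TPM in elf7-3 and 0.846, 0.878 and 1.42 TPM in Col (2.71 ± 0.18). Both were again higher in elf7-3 at 21 °C, by 2.40 and 1.53. A pair of lipid-transfer proteins rose as well: AT5G01870 averaged 22.8 ± 6.33 TPM in elf7-3 and 3.72 ± 0.143 TPM in Col, and AT3G53980 averaged 52.7 ± 10.8 TPM in elf7-3 and 13.2 ± 0.675 TPM in Col (SD, n = 3 each). AT2G29300, a predicted Rossmann-fold oxidoreductase, was at 64, 64.2 and 60.6 TPM in elf7-3 and 15.6, 13.2 and 18.1 TPM in Col. AT1G30250 (3.61 ± 0.45), AT3G01345 (3.11 ± 0.25) and AT1G33055 (2.29 ± 0.15), which have no assigned function, were the others of the 12 largest rises from loci of ordinary length.

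The other 3 of the 12 largest rises came from very short annotated loci, where few reads make a large TPM. AT4G09355, annotated over 27 bases of chromosome 4, was at 123, 123 and 181 TPM in elf7-3 and listed at 0 in all 3 Col libraries. AT3G55566, of 99 bases, was at 7.43, 3.72 and 21.9 TPM in elf7-3 and listed at 0 in Col at 27 °C, although the Col libraries at 21 °C held 7.12, 1.76 and 3.33 TPM. AT5G23115, of 29 bases, was at 57.1, 44.4 and 99.8 TPM in elf7-3 and at 0, 18.1 and 0 TPM in Col. No fold is given for the loci listed at 0, and AT4G09355 and AT3G55566 passed the level filter through elf7-3 alone, so they had to differ. Of all genes tested, 83 passed through elf7-3 alone, of which 69 were called higher and 0 lower, and 57 through Col alone, of which 49 were called lower and 0 higher.

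The 12 largest falls held genes of varied function, among them the lipid enzymes FAR1 and ADS1 and the hormone synthesis enzymes ACS8 and YUC8. AT5G44440, a berberine bridge enzyme-like oxidase, was at 0.510, 1.44 and 1.09 TPM in elf7-3 and 42.9, 42.7 and 42.2 TPM in Col, a log2 fold change of -4.46 ± 0.37. It was low in both genotypes at 21 °C, where the difference was 0.05. FAR1, a fatty acid reductase that makes the fatty alcohols of suberin, was at 18.4, 20.5 and 13.7 TPM in elf7-3 and 143, 112 and 116 TPM in Col (-2.76 ± 0.27). ADS1, a fatty acid desaturase, averaged 2.61 ± 0.807 TPM in elf7-3 and 22.0 ± 2.61 TPM in Col (-2.69 ± 0.21). AT1G52100, a mannose-binding lectin, was at 20.5, 27.9 and 26.1 TPM in elf7-3 and 201, 162 and 181 TPM in Col, and it was as far below Col at 21 °C (-2.82 and -2.59). The remaining members of this group were AT5G02540, a Rossmann-fold protein (-2.57 ± 0.22), AT1G76720, annotated as a translation initiation factor (-2.50 ± 0.19), AT3G21330, a bHLH transcription factor (-2.49 ± 0.19), GER2, a germin-like protein (-2.37 ± 0.24), ACS8, an enzyme that makes the precursor of ethylene (-2.28 ± 0.34), ECS1 (-2.19 ± 0.29), and the auxin genes IAA29 and YUC8 described below. The rule that chose these 12 required that the libraries of the genotypes not overlap.

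The subunits of the Paf1 complex did not move together. Besides ELF7, VIP6, the Ctr9 subunit, was lower at 18.9, 20.3 and 19.0 TPM in elf7-3 and 25.8, 24.6 and 26.7 TPM in Col (-0.39 ± 0.07; adjusted p = 0.000239). VIP3, the WD40-repeat subunit, VIP5, the Rtf1 subunit, and CDC73 were higher, by 0.31 ± 0.08, 0.27 ± 0.07 and 0.30 ± 0.08. For VIP4, the Leo1 subunit, the libraries read 75.0, 74.6 and 70.0 TPM in elf7-3 and 72.2, 70.1 and 69.0 TPM in Col, and it did not pass the test (0.05 ± 0.06, adjusted p = 0.509). The complex thus held 3 higher and 2 lower of 6 subunits, and these counts were the same whichever of the 6 libraries was left out. Of 8 tested elongation factors 4 were higher and 0 lower, among them SPT16 (104 ± 0.613 TPM in elf7-3 and 77.3 ± 3.68 TPM in Col) and SSRP1 (77.2 ± 1.97 TPM in elf7-3 and 60.1 ± 3.03 TPM in Col), the subunits of the histone chaperone FACT. The others, TFIIS and IWS1, lost their calls when single libraries were left out, TFIIS without Col replicate 1 (adjusted p = 0.115), elf7-3 replicate 1 (0.0537) or elf7-3 replicate 3 (0.0972), and IWS1 without Col replicate 1 (0.147), Col replicate 3 (0.0878) or elf7-3 replicate 1 (0.214). Of 9 enzymes of H2B ubiquitination and H3 methylation, 0 were higher and 3 lower, and without Col replicate 3 only 1 was lower. Among them ATX2, a methyltransferase for lysine 4 of H3, was at 24.8 ± 0.311 TPM in elf7-3 and 35.5 ± 1.62 TPM in Col (-0.50 ± 0.07).

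All 6 genes of the FLC clade, MADS-box repressors of flowering, were lower in elf7-3, against 19.2% of all genes tested. FLC, the floral repressor that winter cold silences, was at 0.0303, 0.0303 and 0.0596 TPM in elf7-3 and at 6.31, 9.00 and 7.77 TPM in Col, a log2 fold change of -3.05 ± 0.19 (adjusted p = 9.12e-09). FLM, whose splice forms set flowering by ambient temperature, was at 5.57, 5.65 and 4.79 TPM in elf7-3 and 21.3, 17.9 and 19.9 TPM in Col (-1.71 ± 0.12). No elf7-3 library of either gene reached a Col library. The neighbouring genes MAF2, MAF3, MAF4 and MAF5 on chromosome 5 were lower by smaller steps, at -0.46 ± 0.07, -0.47 ± 0.11, -0.86 ± 0.15 and -0.68 ± 0.15. FLC and MAF5 passed the level filter through Col alone, and MAF2 to MAF5 are similar enough in sequence to share reads. At 21 °C 5 of the 6 were lower, all but MAF2 (-0.13), and a change of the difference between the temperatures was called for 0 of the 6. The number lower at 27 °C was 6 whichever library was left out.

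Downstream of these repressors, SOC1, a flowering activator that FLC represses, was higher at 6.81, 5.69 and 4.34 TPM in elf7-3 and 1.39, 1.83 and 1.2 TPM in Col (1.41 ± 0.17; adjusted p = 8.02e-06), and it was the only gene of the 12 tested flowering-time genes that rose. SVP, a partner of FLC and FLM, averaged 42.7 ± 2.57 TPM in elf7-3 and 51.8 ± 1.64 TPM in Col (-0.27 ± 0.07). SMZ, an AP2-type repressor, averaged 5.80 ± 0.383 TPM in elf7-3 and 9.93 ± 1.38 TPM in Col, and FPA, an RNA-binding protein that lowers FLC, 29.6 ± 0.666 TPM in elf7-3 and 40.2 ± 1.84 TPM in Col. The floral organ genes PI and SEP3 were higher, PI at 9.15, 5.56 and 6.37 TPM in elf7-3 and 2.79, 2.87 and 4.40 TPM in Col, and SEP3 at 6.25, 4.83 and 4.54 TPM in elf7-3 and 2.89, 3.03 and 1.89 TPM in Col. The summed level of 7 floral organ genes was 10.5 to 15.6 TPM in elf7-3 and 6.05 to 6.38 TPM in Col. That sum came mostly from PI and SEP3. AP1 was listed at 0 in all 6 libraries, and AP3, AG, SEP1 and SEP2 were at most 0.192 TPM in any. At 21 °C the sums overlapped, at 2.36 to 3.41 TPM in elf7-3 and 2.18 to 3.31 TPM in Col. The part of floral tissue in these values was not tested.

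**Figure D2:**
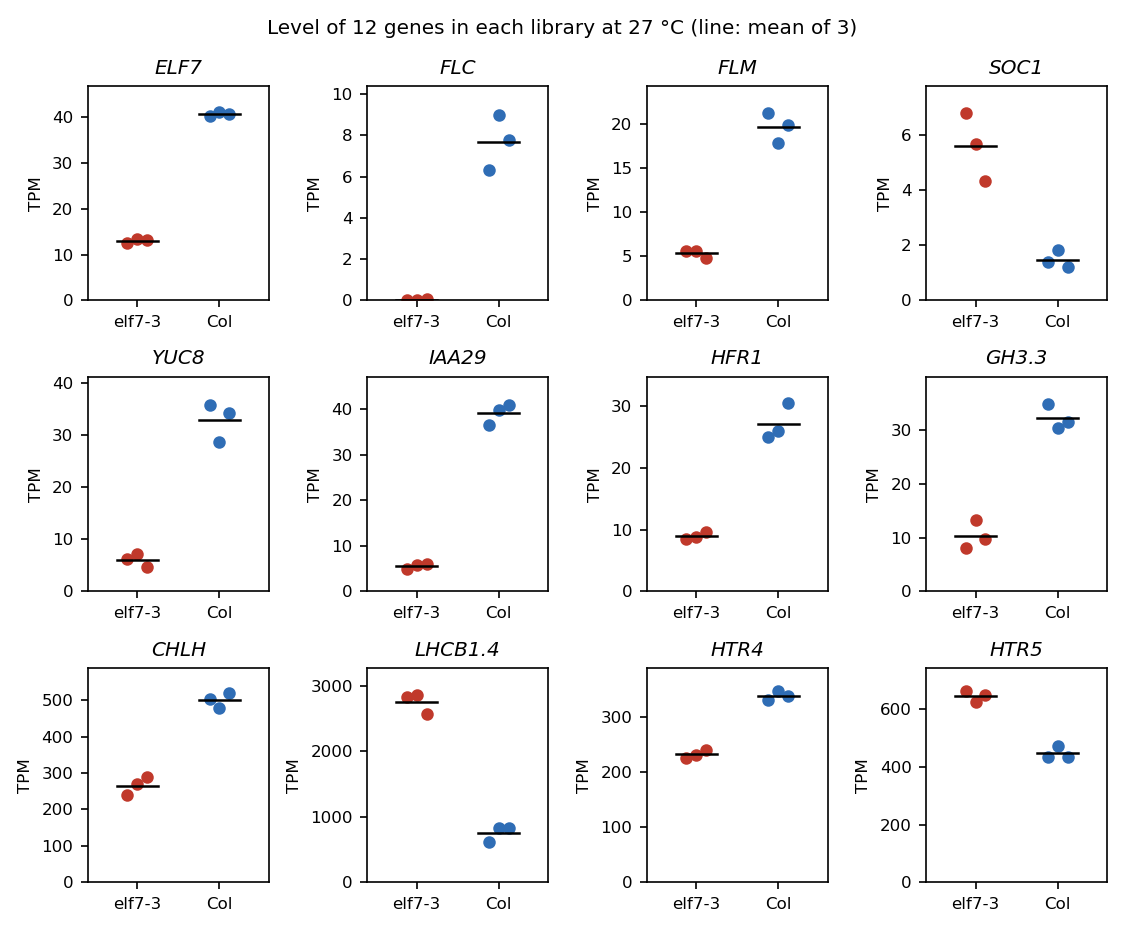
TPM of 12 genes in each library at 27 °C, elf7-3 left and Col right in each panel; points are single libraries and the line is their mean. In these panels ELF7, FLC, FLM, YUC8, IAA29, HFR1, GH3.3, CHLH and HTR4 lie lower in elf7-3, and SOC1, LHCB1.4 and HTR5 higher.

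Histone genes changed in both directions. Of the 3 genes that encode H3.3, HTR4 was lower at 225, 232 and 240 TPM in elf7-3 and 330, 347 and 337 TPM in Col (-0.54 ± 0.05), while HTR5 was higher at 663, 625 and 649 TPM in elf7-3 and 435, 473 and 432 TPM in Col (0.53 ± 0.05). HTR8 was higher too, at 248, 256 and 240 TPM in elf7-3 and 188, 197 and 184 TPM in Col (0.39 ± 0.08). The same directions were called at 21 °C, and these near-identical genes may share reads. Of 5 genes for the replication-coupled form H3.1, 2 were higher and 0 lower, with HTR2 at 94.8 ± 6.83 TPM in elf7-3 and 69.1 ± 9.88 TPM in Col. Leaving out single libraries gave 1 to 3 higher, 1 without Col replicate 3 or elf7-3 replicate 2. Among 12 genes of H2A.Z and its remodellers, 4 were higher and 2 lower, beside 17% higher and 19.2% lower of all genes tested. Without elf7-3 replicate 3 there were 2 higher. HTA4, annotated as a histone H2A, fell to 0.627, 0.752 and 0.986 TPM in elf7-3, against 4.97, 6.19 and 5.91 TPM in Col (-1.90 ± 0.18); it passed the filter through Col alone. PIE1, the ATPase of the SWR1 complex that places H2A.Z, averaged 10.7 ± 0.525 TPM in elf7-3 and 18.7 ± 0.809 TPM in Col (-0.75 ± 0.07). HTA11, an H2A.Z gene, averaged 31.7 ± 2.07 TPM in elf7-3 and 23.8 ± 1.8 TPM in Col (0.40 ± 0.08), and ARP4, a subunit of the remodellers, 56.5 ± 4.68 TPM in elf7-3 and 45.6 ± 1.44 TPM in Col (0.30 ± 0.06). Of 10 H3 chaperone genes 1 was higher and 2 lower, near or below the 17% higher and 19.2% lower of all genes tested. The higher was UBN2 (0.45 ± 0.10). Of the lower, CABIN1, a partner of the HIRA complex, stood at 11.2 ± 0.665 TPM in elf7-3 and 15.2 ± 0.509 TPM in Col. The other, HIRA itself, lost its call without Col replicate 2 (adjusted p = 0.0764) or elf7-3 replicate 2 (0.105), and 2 chaperone genes were higher without elf7-3 replicate 1 or 2.

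Auxin genes were lower in elf7-3. Of 21 tested auxin-responsive genes 17 were lower in elf7-3 and 0 higher, with a median of -1.10 and no member above 0, against 19.2% lower and a median of -0.010 over all genes. Of 8 tested auxin synthesis genes 5 were lower and 1 higher, with a median of -0.59. Left-out libraries changed these counts little, to between 17 and 18 lower for the responsive genes and between 4 and 5 for the synthesis genes. Of the 23 and 10 genes on the lists, IAA5, SAUR15, YUC1 and YUC4 stayed below the level filter, with no library above 2.34 TPM.

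Among the synthesis genes, YUC8, YUC9 and YUC2, flavin monooxygenases that carry out the last step of auxin synthesis, fell most. YUC8 was at 6.15, 7.21 and 4.69 TPM in elf7-3 and 35.9, 28.7 and 34.2 TPM in Col (-2.28 ± 0.26; adjusted p = 4.09e-06). YUC9 was at 0.946, 2.52 and 2.27 TPM in elf7-3 and 5.55, 8.48 and 6.68 TPM in Col (-1.47 ± 0.22), and YUC2 at 1.78, 1.64 and 2.24 TPM in elf7-3 and 6.58, 6.21 and 5.98 TPM in Col (-1.34 ± 0.14). In each the elf7-3 libraries lay wholly below those of Col. At 21 °C none of these genes differed between the genotypes by the test, with log2 differences of 0.49, 0.27 and -0.09, and the change between the temperatures was called for each (-2.77, -1.74 and -1.24). TAR2, an aminotransferase that acts one step earlier, was lower at both temperatures (-0.64 ± 0.17 at 27 °C and -0.82 at 21 °C). The exception was YUC6, higher at 13.0, 13.2 and 12.2 TPM in elf7-3 and 10.2, 6.98 and 8.12 TPM in Col (0.56 ± 0.14).

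Among the responsive genes, IAA29, a repressor that auxin and warmth induce, was at 5.03, 5.73 and 5.98 TPM in elf7-3 and 36.6, 39.7 and 41.0 TPM in Col (-2.61 ± 0.20; adjusted p = 5.47e-08). GH3.3, which conjugates auxin to amino acids, was at 8.08, 13.2 and 9.68 TPM in elf7-3 and 34.9, 30.3 and 31.5 TPM in Col (-1.57 ± 0.16). The SAUR genes of the chromosome 5 cluster, small proteins that keep the proton pump of growing cells active, fell as well: SAUR22 averaged 1.96 ± 0.739 TPM in elf7-3 and 11.8 ± 4.15 TPM in Col, SAUR23 2.34 ± 1.13 TPM in elf7-3 and 9.48 ± 2.18 TPM in Col, and SAUR20 4.35 ± 0.994 TPM in elf7-3 and 14.9 ± 2.8 TPM in Col. Their sequences are close enough to share reads. At 21 °C the responsive genes held 3 higher and 5 lower, with a median of -0.03, and for 14 of the 21 the difference from Col was more negative at 27 °C, against 3.59% of all genes. Without elf7-3 21 °C replicate 1, an omission chosen after the data were seen for a library that read 5.88 TPM for IAA29 beside 2.26 and 2.77 TPM in the other elf7-3 libraries at 21 °C, that number was 13.

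The promoters of several of these genes carry the PBE-box, a sequence that PIF proteins are known to bind. It was searched as CATGTG or CACATG, which are the same site read on either strand, in the 250 bases before the annotated start. It was found in 11 of the 22 auxin synthesis and responsive genes called lower (50%) and in 2157 of 19184 promoters of all genes tested (11.2%). It was in 16% of the promoters of genes called lower by at least 2-fold, and in 9.93% of those called higher by at least 2-fold. The G-box CACGTG, another PIF-bound sequence, was in 2 of the 22 (9.09%) and in 7.49% of all, and the auxin response element TGTCTC or GAGACA in 8 of the 22 (36.4%) and in 10.7% of all. A match is a run of letters and not a shown binding site. The promoters of the 3 YUC genes and of SAUR22 are printed to show the box in synthesis genes and in the responsive gene furthest below Col that holds one, and they were picked after the matches were seen. They come from TAIR10.1, the RefSeq build in use here, with positions 1-based, read 5′ to 3′ on the strand of the gene, with the PBE-box in capitals. The box begins 53 bases before the start in YUC8 (chr4:14192319-14192568, plus strand), 65 in YUC9 (chr1:1104243-1104492, plus strand), 17 in YUC2 (chr4:7724071-7724320, minus strand) and 105 in SAUR22 (chr5:5975088-5975337, minus strand).
YUC8: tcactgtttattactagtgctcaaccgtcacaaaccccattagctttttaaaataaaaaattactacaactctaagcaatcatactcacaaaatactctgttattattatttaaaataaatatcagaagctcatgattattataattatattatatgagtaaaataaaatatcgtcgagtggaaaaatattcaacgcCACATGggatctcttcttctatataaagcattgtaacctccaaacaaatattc
YUC9: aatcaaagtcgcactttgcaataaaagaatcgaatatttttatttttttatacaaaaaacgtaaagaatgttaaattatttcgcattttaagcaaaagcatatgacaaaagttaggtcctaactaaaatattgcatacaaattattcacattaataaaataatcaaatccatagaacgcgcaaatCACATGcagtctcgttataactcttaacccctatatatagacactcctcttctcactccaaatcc
YUC2: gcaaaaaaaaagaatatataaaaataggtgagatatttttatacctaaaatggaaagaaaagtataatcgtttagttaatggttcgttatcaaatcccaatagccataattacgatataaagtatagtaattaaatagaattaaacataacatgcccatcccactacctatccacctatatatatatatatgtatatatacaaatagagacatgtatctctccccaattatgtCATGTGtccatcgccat
SAUR22: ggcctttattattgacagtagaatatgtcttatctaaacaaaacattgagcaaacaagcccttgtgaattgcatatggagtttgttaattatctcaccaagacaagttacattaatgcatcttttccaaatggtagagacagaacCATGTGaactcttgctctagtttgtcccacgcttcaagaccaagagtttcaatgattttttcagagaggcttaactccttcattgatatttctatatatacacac
IAA29, with the largest fall on the responsive list, has no PBE-box in this window, and ACS8 has one that begins 15 bases before its start.

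Among regulators of growth in warmth and shade, 10 of 19 tested were lower and 0 higher, with a median of -0.29. HFR1, a bHLH protein that holds back PIFs and is itself induced by them, was at 8.53, 8.85 and 9.66 TPM in elf7-3 and 25, 25.9 and 30.5 TPM in Col (-1.49 ± 0.12; adjusted p = 8.46e-08). It was lower at 21 °C too (-0.96). The shade-induced homeobox genes ATHB2 and HAT2 averaged 8 ± 1.63 and 43.7 ± 4.6 TPM in elf7-3 and 14.2 ± 0.968 and 71.5 ± 3.01 TPM in Col. PRE6, a small HLH protein, averaged 6.63 ± 1.62 TPM in elf7-3 and 11.5 ± 1.27 TPM in Col. At 21 °C none of these 3 genes differed by the test, and for each the difference was more negative at 27 °C (-0.61, -0.86 and -1.09). Leaving out single libraries gave 7 to 10 lower. The related PRE1 (-0.64 ± 0.23) lost its call without Col replicate 1 (adjusted p = 0.121), Col replicate 3 (0.118), elf7-3 replicate 2 (0.108) or elf7-3 replicate 3 (0.0961).

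Cell wall and growth hormone genes were lower more often than higher. Of 18 cell wall genes 8 were lower and 2 higher, with 1 higher without Col replicate 3 or elf7-3 replicate 2. XTH15, XTH22 and XTH33, enzymes that cut and rejoin xyloglucan, averaged 69.9 ± 11.6, 39.2 ± 8.82 and 2.1 ± 0.538 TPM in elf7-3 and 173 ± 13.5, 84.8 ± 8.17 and 7.11 ± 0.632 TPM in Col. The expansin EXPA8, which loosens walls, was at 45.4, 64.0 and 54.1 TPM in elf7-3 and 137, 117 and 131 TPM in Col (-1.23 ± 0.15). XTH22 was as low at 21 °C (-1.11 and -1.18). Of 23 gibberellin and brassinosteroid genes 9 were lower and 2 higher, and 1 was higher whichever library was left out. GA2OX6, which inactivates gibberellin, was at 2.84, 3.29 and 3.3 TPM in elf7-3 and 11.9, 9.61 and 12 TPM in Col (-1.55 ± 0.14). At 21 °C the same gene was higher in elf7-3 (0.67; adjusted p = 0.0017), and the change between the temperatures was -2.22 (adjusted p = 7.4e-06). BRI1, the brassinosteroid receptor, was lower at 180, 184 and 165 TPM in elf7-3 and 245, 256 and 268 TPM in Col, with a difference of -0.01 at 21 °C. BAS1 and ROT3, P450 enzymes that break down and make brassinosteroids, were lower by 0.77 and 0.49 on the log2 scale. GA20OX1, which makes gibberellin, averaged 2.21 ± 0.266 TPM in elf7-3 and 5.08 ± 0.971 TPM in Col.

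**Figure D3:**
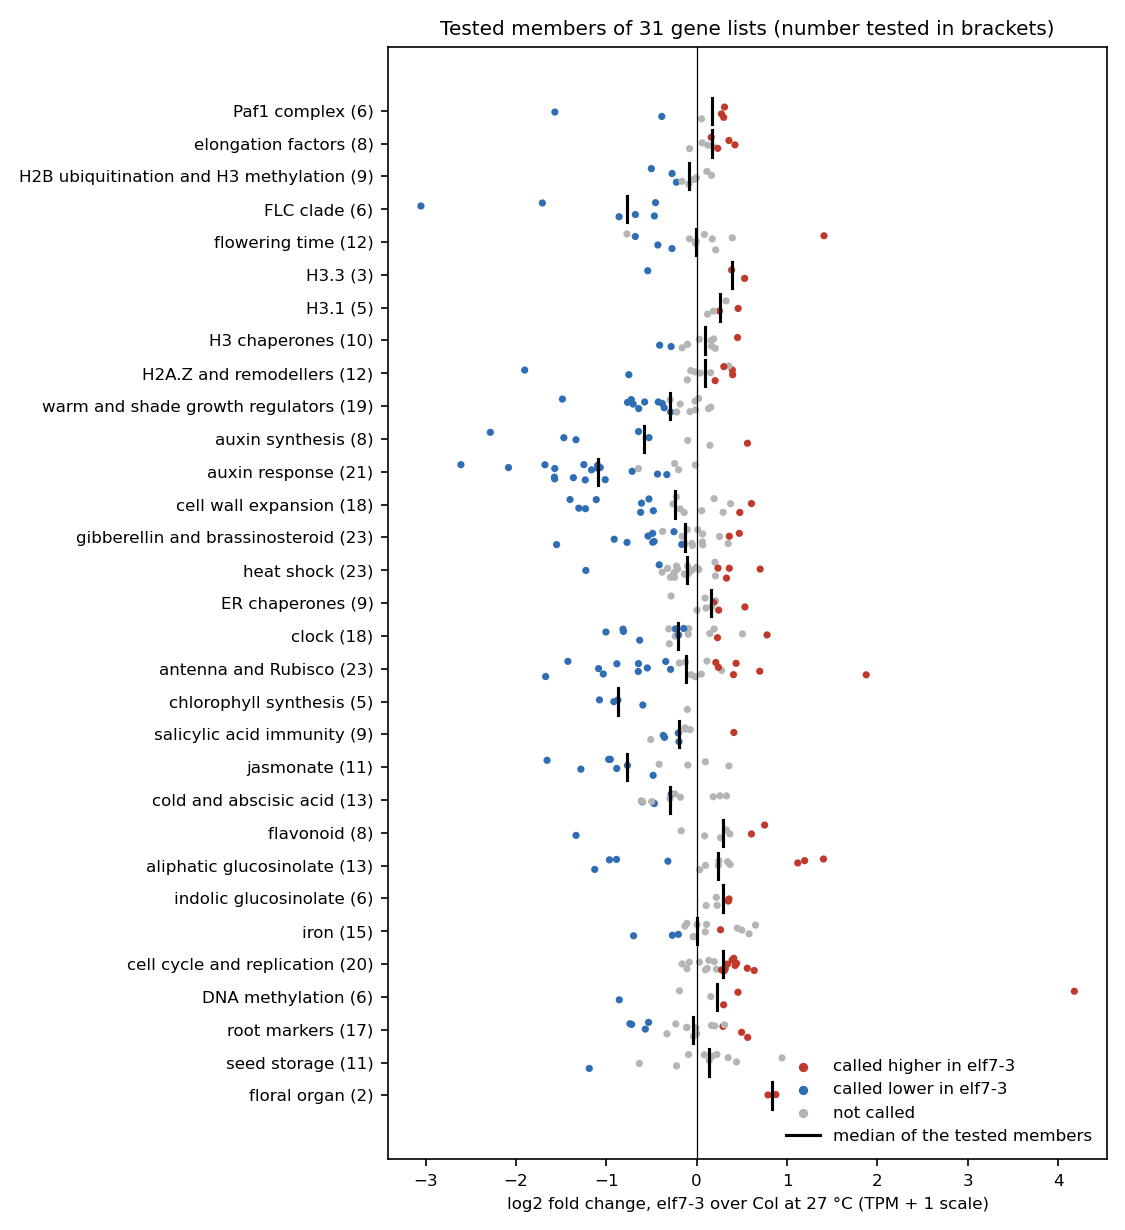
Log2 fold change, elf7-3 over Col at 27 °C, of each tested member of 31 gene lists; red and blue points passed the test and black bars are list medians. The auxin response list lies wholly left of 0 with its median at -1.10, the FLC clade is blue throughout, and cell cycle genes lie mostly right of 0.

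Genes of light harvesting and chlorophyll were divided. Of 23 antenna and Rubisco genes 6 were higher and 10 lower. LHCB1.4, a major antenna protein of photosystem II, was read at 2833, 2858 and 2564 TPM in elf7-3 and 610, 832 and 823 TPM in Col (1.88 ± 0.11; adjusted p = 2.66e-09). LHCB2.1, LHCB2.2 and LHCB2.3, which encode another antenna protein, went the other way at -1.09 ± 0.12, -1.67 ± 0.19 and -1.43 ± 0.19, and LHCB4.2, a minor antenna gene, was at 502, 520 and 505 TPM in elf7-3 and 1009, 1024 and 1097 TPM in Col. LHCB1 and LHCB2 genes are near-identical within each family and may share reads. Of 5 tested chlorophyll synthesis genes 4 were lower and 0 higher, with a median of -0.87. CHLH, the large subunit of magnesium chelatase, was at 239, 269 and 289 TPM in elf7-3 and 504, 479 and 520 TPM in Col (-0.92 ± 0.08), and at 21 °C it was higher in elf7-3 (0.32; adjusted p = 0.0062). PORB, HEMA1 and CAO, which act before and after it, were lower by 1.08, 0.60 and 0.87 on the log2 scale. The summed level of 5 photosynthetic marker genes was 34668 to 37807 TPM in elf7-3 and 38855 to 39605 TPM in Col, without overlap.

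Several clock genes expressed in the morning were lower. Of 18 tested clock genes 7 were lower and 2 higher. RVE4, RVE1 and RVE2, MYB-like relatives of the morning oscillator proteins, averaged 54.6 ± 2.06, 13.3 ± 3.69 and 142 ± 22.4 TPM in elf7-3 and 96.8 ± 0.753, 27.1 ± 2.98 and 247 ± 2.84 TPM in Col. All 3 were lower at 21 °C as well. GI, an evening gene, was higher at 9.35, 9.98 and 7.24 TPM in elf7-3 and 3.74, 4.83 and 5.71 TPM in Col (0.78 ± 0.17). CCA1 and LHY, the morning oscillator genes themselves, stayed below the level filter, and when in the day the seedlings were harvested is not stated. Leaving out single libraries gave 5 to 8 lower and 1 to 4 higher, 1 without Col replicate 1 or elf7-3 replicate 1 and 4 without Col replicate 2.

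Jasmonate genes were lower, while most heat shock genes did not pass the test. Of 23 tested heat shock genes 4 were higher, 2 lower and 17 not called, beside 17% higher and 19.2% lower of all genes tested, and whichever of the 6 libraries was left out 1 was lower. HSC70-1 (0.33 ± 0.07) and HSP90.2 (0.36 ± 0.07), abundant chaperones, and HSP18.2 (0.70 ± 0.17) were among the higher, and HSP17.6A (-1.23 ± 0.31) was lower. Of 9 endoplasmic reticulum chaperone genes 3 were higher and 0 lower, with 1 to 4 higher when single libraries were left out and 1 without Col replicate 2. BIP2, an endoplasmic reticulum chaperone, averaged 120 ± 12.4 TPM in elf7-3 and 82.5 ± 0.523 TPM in Col. Of 11 tested jasmonate genes 7 were lower and 0 higher, with a median of -0.77. With single libraries left out, 5 to 7 were lower and 0 higher. LOX2, which begins jasmonate synthesis in chloroplasts, was at 3.04, 6.40 and 9.73 TPM in elf7-3 and 20.3, 20.2 and 21.2 TPM in Col (-1.66 ± 0.33), and AOS, the next enzyme, at 41.6, 54.6 and 51.5 TPM in elf7-3 and 102, 86.8 and 103 TPM in Col (-0.97 ± 0.11). AOC1 and AOC2, the cyclases, were lower by 1.28 and 0.96 and may share reads. Of 9 tested salicylic acid genes 1 was higher and 4 lower, and 0 to 1 were higher and 2 to 3 lower whichever of the 6 libraries was left out. Of these, the immune receptor SNC1 kept its call under each such omission, at 81.0 ± 2.55 TPM in elf7-3 and 92.9 ± 2.92 TPM in Col. Of 13 tested cold and abscisic acid genes 0 were higher and 4 lower, 2 to 6 lower with single libraries left out and 2 without Col replicate 2, Col replicate 3 or elf7-3 replicate 2. The protein phosphatase HAB1, which restrains abscisic acid signalling, and COR47, a dehydrin, were lower at 34.9 ± 3.52 and 209 ± 4.52 TPM in elf7-3 and 53.4 ± 4.36 and 290 ± 16.5 TPM in Col.

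Aliphatic glucosinolate genes, which make methionine-derived defence compounds, differed from Col in another way at each temperature. At 27 °C, 3 of 13 tested members were higher and 4 lower; at 21 °C 0 were higher and 8 lower, and for 7 the difference from Col was more positive at 27 °C, against 3.78% of all genes. IPMDH1, which lengthens the methionine chain, was at 31.1, 64.9 and 44.6 TPM in elf7-3 and 22.5, 16.4 and 18.7 TPM in Col (1.19 ± 0.26), while at 21 °C it was at 14.2, 9.01 and 11.3 TPM in elf7-3 and 26.4, 27.6 and 30.9 TPM in Col (-1.25). BCAT4, which starts the chain, read 2.53, 8.86 and 6.5 TPM in elf7-3 and 2.50, 1.54 and 1.88 TPM in Col (1.12 ± 0.32); its call was lost without elf7-3 replicate 2 (adjusted p = 0.0686). MAM3, another chain-elongation enzyme, averaged 14.7 ± 5.35 TPM in elf7-3 and 4.76 ± 0.892 TPM in Col (1.4 ± 0.23). The core P450 enzymes CYP79F1 and CYP83A1 were lower, CYP79F1 at 0, 0.217 and 0 TPM in elf7-3 and 1.38, 1.34 and 1.28 TPM in Col, and CYP83A1 at 7.08, 20.4 and 14.3 TPM in elf7-3 and 25.9, 22.9 and 29.6 TPM in Col. CYP79F1 passed the filter through Col alone. The call of CYP83A1 was lost without Col replicate 1 (adjusted p = 0.0728), Col replicate 2 (0.0501), Col replicate 3 (0.105), elf7-3 replicate 1 (0.199) or elf7-3 replicate 3 (0.0555), and leaving out single libraries gave 2 to 5 members higher and 1 to 3 lower. Without elf7-3 replicate 1 there were 5 higher and 1 lower, without Col replicate 3 there was 1 lower, and without Col replicate 1 or 2 there were 2 lower. Of 6 indolic glucosinolate genes 3 were higher and 0 lower, with CYP83B1 at 237 ± 9 TPM in elf7-3 and 186 ± 13.1 TPM in Col.

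Casparian strip genes of the root stood below Col at 27 °C but not at 21 °C. The Casparian strip proteins CASP1, CASP2 and CASP4, which line the endodermis of the root, were lower in elf7-3 at 27 °C (-0.57, -0.74 and -0.72) and had differences of 0.54, 0.21 and 0.94 at 21 °C, where all but CASP2 were called higher. Of 17 tested root markers, these included, 3 were higher and 4 lower at 27 °C, with a median of -0.035. Leaving out single libraries gave 3 higher and 3 to 4 lower. Of all genes tested, 17% were higher and 19.2% lower. At 21 °C 10 of the 17 were higher and 0 lower, with a median of 0.54. The summed level of 20 root markers was 399 to 515 TPM in elf7-3 and 433 to 528 TPM in Col at 27 °C, overlapping, and 351 to 401 TPM in elf7-3 and 216 to 221 TPM in Col at 21 °C. The part of the share of root in the seedlings was not tested. Of 20 cell cycle and replication genes 11 were higher and 0 lower, with a median of 0.29; with any 1 of the 6 libraries left out, 5 to 8 were higher. CYCB1;1, a cyclin of dividing cells, was at 6.30, 7.89 and 6.27 TPM in elf7-3 and 4.09, 3.74 and 4.2 TPM in Col (0.64 ± 0.15). CDKB1;1, CDKB2;1 and CDKB2;2, kinases of division, and MCM7, a replication helicase subunit, were higher by 0.56, 0.41, 0.43 and 0.44. At 21 °C this list held 2 higher and 3 lower, near or below the 13.5% higher and 15.8% lower of all genes tested. A change between the temperatures was called for 0 members of the list.

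Smaller lists gave single genes, and their counts stand beside 17% higher and 19.2% lower of all genes tested. Of 6 tested genes on the DNA methylation list, 3 were higher, among them QQS as described above, and 1 was lower. There were 2 higher without Col replicate 2, elf7-3 replicate 2 or elf7-3 replicate 3. ROS1, a DNA demethylase, was at 3.15, 3.14 and 3.09 TPM in elf7-3 and 6.25, 6.78 and 6.39 TPM in Col (-0.86 ± 0.11), while CMT3, a DNA methyltransferase, averaged 22.1 ± 2.1 TPM in elf7-3 and 15.8 ± 0.617 TPM in Col. Of 8 tested flavonoid genes 2 were higher and 1 lower. The flavonoid regulator MYB111 averaged 0.555 ± 0.171 TPM in elf7-3 and 2.91 ± 0.218 TPM in Col, and passed the filter through Col alone; the enzymes F3'H and F3H were higher by 0.75 ± 0.15 and 0.61 ± 0.13. Of 15 iron genes 1 was higher and 3 lower, near or below the shares of all genes tested. There were 2 higher without Col replicate 1, and 3 higher and 2 lower without Col replicate 3. Among the lower was FER4, an iron-storing ferritin, at 36.0 ± 1.47 TPM in elf7-3 and 43.6 ± 1.01 TPM in Col. Of 11 tested seed storage genes 0 were higher and 1 lower, the cruciferin CRU3 (-1.19 ± 0.29), and their summed level was 218 to 266 TPM in elf7-3 and 219 to 262 TPM in Col.

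The comparison at 21 °C used other libraries than that at 27 °C. It was not fully separate, since the genes were those of the 27 °C filter and 1 fit gave the spread for both. There 5654 genes were called (29.3%), 2613 higher (13.5%) and 3041 lower (15.8%) in elf7-3. Of the 3281 genes higher at 27 °C, 1305 (39.8%) were also called higher at 21 °C, 74 (2.26%) lower, and 1902 (58%) were not called. Of the 3699 lower at 27 °C, 1844 (49.9%) were also lower, 78 (2.11%) higher, and 1777 (48%) not called. The sign was shared by 70.3% of all genes tested, 94.7% of those that rose at least 2-fold and 79.5% of those that fell at least 2-fold. The difference itself changed between the temperatures for 1422 genes (7.37%), 730 in the positive and 692 in the negative direction. Among the 244 genes at least 2-fold lower, which were chosen on 1 side of this difference, 104 were more negative at 27 °C and 1 more positive; among the 152 at least 2-fold higher, 38 were more positive and 1 more negative.

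**Figure D4:**
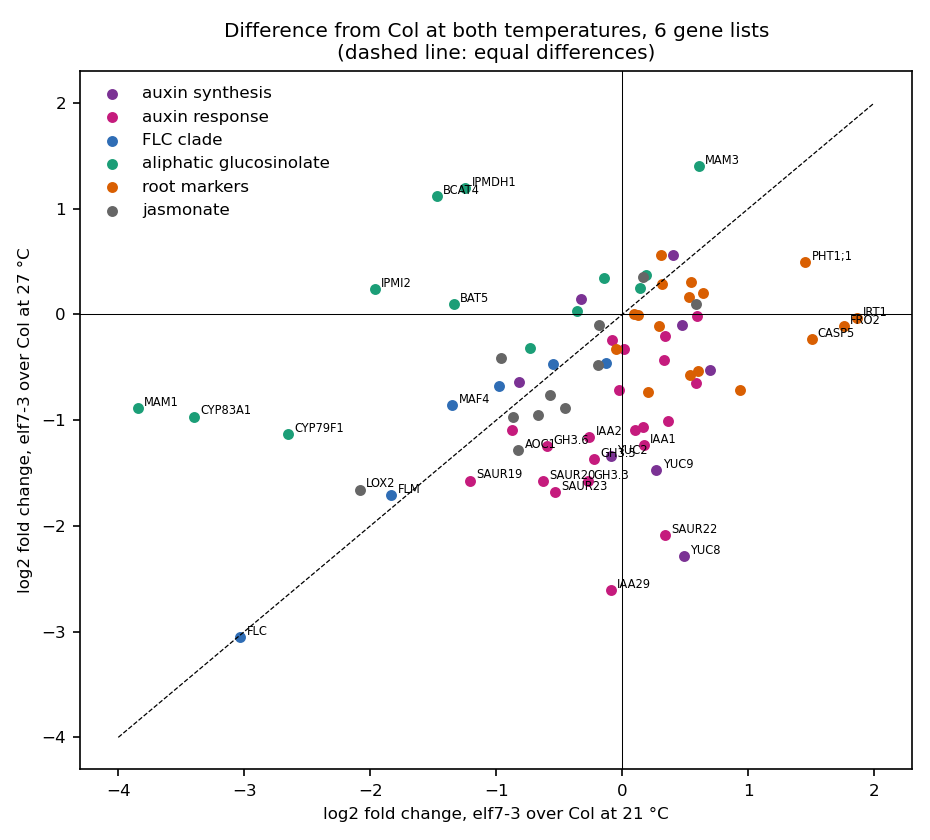
Log2 fold change, elf7-3 over Col, at 21 °C (horizontal) against 27 °C (vertical) for members of 6 gene lists; the dashed line marks equal differences. FLC lies near the line at -3.03 and -3.05, YUC8 and IAA29 lie far below it, and the aliphatic glucosinolate genes IPMDH1 and BCAT4 lie above it.

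Genes that warmth induces were next chosen by their rise in h3.3kd, not by their change in Col or elf7-3. This choice was not fully separate, since the level filter used the 27 °C libraries of elf7-3 and Col. The same fit also gave the spread for all groups. In h3.3kd, 694 genes were called and at least 2-fold higher at 27 °C than at 21 °C. At 27 °C 238 of them (34.3%) were lower in elf7-3 and 76 (11%) higher, with a median of -0.25, beside 19.2% and 17% of all genes. At 21 °C 116 (16.7%) were lower and 98 (14.1%) higher, with a median of -0.019. Averaged over the set, the log2(TPM + 1) level was 3.57, 3.59 and 3.56 in elf7-3 and 3.80, 3.83 and 3.88 in Col at 27 °C, so that the genotypes did not overlap; at 21 °C it was 2.80, 2.64 and 2.62 in elf7-3 and 2.73, 2.70 and 2.67 in Col. Of the 309 genes that warmth lowered in h3.3kd, 60 (19.4%) were higher and 56 (18.1%) lower in elf7-3 at 27 °C. When the warm-induced set was chosen without h3.3kd 27 °C replicate 1, an alternative added after the data were seen, 251 of 716 genes (35.1%) were lower and 79 (11%) higher.

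The h3.3kd libraries at 27 °C, set against the same Col libraries, gave values that can stand beside those of elf7-3 but are not independent of them. YUC8 was at 6.15, 7.21 and 4.69 TPM in elf7-3, 13.8, 17.3 and 10.5 TPM in h3.3kd and 35.9, 28.7 and 34.2 TPM in Col. FAR1 was at 18.4, 20.5 and 13.7 TPM in elf7-3, 17.2, 21.2 and 13.1 TPM in h3.3kd and 143, 112 and 116 TPM in Col. For GH3.3 the levels were 8.08, 13.2 and 9.68 TPM in elf7-3, 22.0, 32.1 and 25 TPM in h3.3kd and 34.9, 30.3 and 31.5 TPM in Col. SAUR22 read 1.23, 2.71 and 1.94 TPM in elf7-3, 24.1, 33.2 and 31.9 TPM in h3.3kd and 7.00, 14.2 and 14.1 TPM in Col. LHCB1.4 read 2833, 2858 and 2564 TPM in elf7-3, 365, 394 and 372 TPM in h3.3kd and 610, 832 and 823 TPM in Col. The genotypes were thus ordered differently from gene to gene, and no test of elf7-3 against h3.3kd was made.

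Genes with longer transcripts were more often called lower in elf7-3. In the eighth of tested genes with the shortest annotated transcripts (27 to 980 bases) 23.1% were higher and 11.5% lower, and in the eighth with the longest (2926 to 16593 bases) 8.22% were higher and 38.5% lower. The median log2 fold change was 0.11 in the shortest eighth and -0.14 in the longest. At 21 °C the shares were 14.1% higher and 10.7% lower in the shortest eighth, and 8.3% and 28.8% in the longest. With the genes split into 3 classes of expression level, the share lower was greater among the longest than among the shortest genes in each class: 24% and 10.3% in the lowest, 46.5% and 10.9% in the middle, and 40.3% and 13.9% in the highest. The longest eighth took 9.56, 9.49 and 9.31% of all TPM in elf7-3 and 10.2, 10.2 and 10.6% in Col. Counts of reads per gene grow with its length and level, and their part in these shares was not tested.

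**Figure D5:**
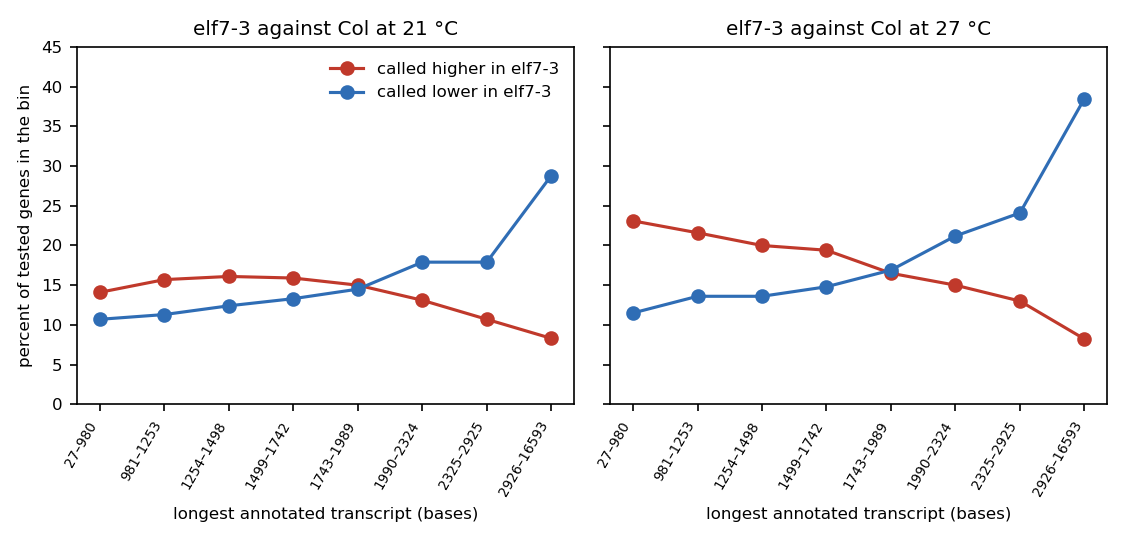
Percent of tested genes called higher (red) and lower (blue) in elf7-3, by the length of the longest annotated transcript in 8 bins, at 21 °C (left) and 27 °C (right). At 27 °C the share lower climbs to 38.5% in the longest bin while the share higher falls to 8.22%.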

How the data were processed

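Libraries were made from total RNA with the NEBNext Ultra kit, per the labels' protocols. The tools listed in the submitters' processing notes are DESeq2 1.26.0, fastp 0.20.1, HTSeq 0.11.2 and HISAT2, with the build TAIR10 and no roles. The authors deposited 1 table of TPM values for 18 libraries, 3 in each of 6 groups; how TPM was computed and the strand setting are not given in the sources used here. No counts were used here, so depth is only approximate.

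Values were taken as log2(TPM + 1) for genes that reached 1 TPM in 3 or more of the 6 libraries compared. All 18 libraries entered 1 limma fit (limma 3.58.1, R 4.3.3; 6 group means, 12 residual degrees of freedom, trended eBayes), with two-sided p-values adjusted by Benjamini-Hochberg over all genes tested and a threshold of 0.05. The difference between temperatures was tested as the elf7-3 minus Col contrast at 27 °C minus that at 21 °C. The fit was tested on simulated data. Lists and figures used Python 3.11.15, pandas 2.3.3, numpy 2.4.6 and matplotlib 3.10.9. Gene names and promoters came from RefSeq (build TAIR10.1), which annotates 27445 of the 27655 loci. At the level filter, 315 genes had exactly 3 libraries at 1 TPM (median 1.09 TPM) and 327 just missed with 2 (median 0.839 TPM).

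The genes, the 31 lists and the comparison were chosen with earlier results of these data known. Named genes were the mutated gene, every member of the Paf1 complex, FLC clade and H3.3 lists, the 12 largest called rises and falls with a mean of at least 5 TPM and libraries that did not overlap, and up to 5 called members of each other list; 1 of these genes is not reported here. Alternatives were another pseudocount, filter, scaling, fit and fold, and leaving out each library.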

Additional observations from a re-analysis of the deposited data

Results flagged for a closer look

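For 43 of the named genes, the difference between elf7-3 and Col was not the same at 27 °C as at 21 °C by limma's test of that change (adjusted over all genes), and each value here is the log2 difference at 27 °C minus that at 21 °C. Among the largest falls the change was -4.51 for AT5G44440, -3.66 for FAR1, -3.17 for ADS1, -2.95 for AT5G02540, -2.65 for ECS1, -2.47 for AT3G21330 and -2.42 for ACS8. Auxin genes had -2.77 for YUC8, -1.74 for YUC9, -1.24 for YUC2, -2.52 for IAA29, -2.42 for SAUR22, -1.15 for SAUR23 and -1.30 for GH3.3. Other hormone and growth genes had -2.22 for GA2OX6, -0.653 for BAS1, -0.529 for BRI1, -0.611 for ATHB2, -0.864 for HAT2 and -1.09 for PRE6.

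Photosynthesis genes had -1.20 for LHCB2.2, -1.26 for LHCB2.1, -1.01 for LHCB4.2, -1.23 for CHLH and -0.415 for HEMA1, and 0.927 for LHCB1.4. Casparian strip genes had -0.943 for CASP2, -1.66 for CASP4 and -1.10 for CASP1. Single genes of other lists had -1.42 for HTA4, -0.831 for RVE8, -0.648 for SID2, -0.523 for COR47, -1.01 for MYB111 and 0.277 for FER4. Changes in the positive direction were 2.44 for IPMDH1, 1.52 for CYP79F1, 2.59 for BCAT4 and 2.43 for CYP83A1 in aliphatic glucosinolate synthesis, and 1.18 for AT1G18990, 1.67 for AT5G01870, 1.08 for AT1G33055 and 1.09 for AT2G29300 among the largest rises.

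One elf7-3 library at 21 °C, replicate 1, stood above the other elf7-3 libraries at 21 °C in several of these genes, with 14.9 TPM beside 4.98 and 5.03 TPM for FAR1 and 8.43 TPM beside 3.42 and 3.06 TPM for YUC8. Without it, an omission chosen after the data were seen, all 43 changes had the same sign and 42 were still called, the exception being RVE8 (adjusted p = 0.0782).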

How the results depend on the processing

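No named gene changed sign under any alternative. Requiring a 2-fold change left 152 genes higher and 244 lower at 27 °C, 202 higher and 152 lower at 21 °C, and 71 and 179 with a more positive and a more negative difference at 27 °C. A pseudocount of 0.1, no filter, a filter at 5 TPM, library weights, removal of organelle genes, a fit on the compared libraries alone and a fit without h3.3kd, which was added after the data were seen, gave 6336 to 7097 called genes at 27 °C, against 6980. Median-of-ratios scaling moved the median over all genes from -0.010 to 0.011. It gave 3703 higher and 3405 lower, 52.1% higher against 47% before. With 1 of the 6 libraries left out, 2712 to 2894 genes were higher and 2922 to 3295 lower, and 126 of 150 named genes kept their side of the threshold every time. Outside those omissions and the 2-fold rule, 0 to 8 of the named genes lost their call in each alternative. Same-numbered libraries did not pair by their values (correlations of -0.111, -0.172 and 0.021; 2 of 6 libraries correlated best with their own number), and the replicate block gave 3202 higher and 3577 lower. The TPM table limits what can be said of depth, and genes under 1 TPM were not tested.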

Other observations

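Gene families by their annotated product, with at least 15 tested members, were looked at after the data were seen and carry no test of their own. Some of them, such as the SAUR-like and histone families, may share genes with the lists above. Such counts are not separate from those of the lists. Disease resistance genes were more often lower than higher. Of 47 genes annotated as TIR-NBS-LRR immune receptors, 26 were lower and 2 higher in elf7-3 at 27 °C, with a median log2 fold change of -0.32, and of 21 CC-NBS-LRR receptors 12 were lower and 0 higher, with a median of -0.31, against 19.2% lower and 17% higher over all genes. In the eighth of tested genes with the longest transcripts, 38.5% were lower and 8.22% higher at 27 °C. The part of transcript length in the counts of these 2 receptor families was not tested. At 21 °C the TIR-NBS-LRR family held 21 lower and 2 higher, and the CC-NBS-LRR family 9 lower and 1 higher. Of 15 genes for F-box/RNI-like/FBD-like proteins 9 were lower and 1 higher. Of 50 SAUR-like genes, the family that holds the growth genes of chromosome 5, 20 were lower and 5 higher at 27 °C, and 10 lower and 6 higher at 21 °C.

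Of 22 small nuclear ribonucleoproteins, parts of the spliceosome, 11 were higher and 1 lower, with a median of 0.27, and of 19 DEA(D/H)-box RNA helicases 9 were higher and 0 lower, with a median of 0.19. At 21 °C the ribonucleoproteins held 1 higher and 2 lower and the helicases 1 higher and 4 lower. Of 29 genes annotated as histone superfamily proteins 11 were higher and 3 lower at 27 °C. Over all genes tested, 17% were higher and 19.2% lower at 27 °C, and 13.5% higher and 15.8% lower at 21 °C. Among the shortest eighth of genes in the highest class of expression level, 43.6% were higher and 13.9% lower at 27 °C. The part of transcript length and level in these family counts was not tested.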
